A study of Mus musculus with 10 samples.

Results

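A set of 10 genes of inflammation resolution and apoptotic cell clearance, Anxa1, Fpr1, Fpr2, Mertk, Axl, Gas6, Pros1, Stab1, Cd47 and Sirpa, were followed across RNA-seq libraries of mouse Ly6G+ cells. They were chosen by name and not by a rule on measured values, though earlier results of these data were known. They make up 10 of the 28185 genes in the table and 10 of the 11549 genes that passed the filter on low values. All 10 libraries came from 12 to 16 week old male C57Bl/6J mice collected 3 days after ligation of the left coronary artery, and none came from an unoperated mouse. The MI libraries (n = 3) hold Ly6G+ cells of the infarcted left ventricle and the Blood libraries (n = 2) hold Ly6G+ cells of the blood. The MI + MSC (n = 3) and Blood + MSC (n = 2) libraries come from mice that also received syngeneic bone marrow mesenchymal stromal cells (MSC), injected under the skin 30 to 60 minutes after ligation, with 1000000 cells at each of 3 sites. Cells were taken with anti-Ly6G magnetic beads, so the purity of each library depends on this single antigen. The labels do not say which libraries came from separate animals or which heart and blood libraries share a mouse, so p-values measure only the spread between these libraries.

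Dying neutrophils are cleared by phagocytes in a process called efferocytosis, which is part of how inflammation ends. Annexin A1 (Anxa1) is a protein that neutrophils carry and release and that acts through formyl peptide receptors, Fpr2 above all, to limit neutrophil recruitment. Phosphatidylserine on a dying cell is recognised by receptor kinases through bridging proteins, by MerTK through Gas6 and protein S (Pros1) and by Axl through Gas6. Scavenger receptors such as stabilin-1 (Stab1) bind it directly. CD47 on a healthy cell binds SIRPα (Sirpa) on the phagocyte and holds engulfment back.

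Reads on genes ranged from 148594 in MI 13 to 8602711 in Blood + MSC 24, a 57.9-fold range, so that 3 reads corresponded to 25.2 normalized counts in MI 13, 21.2 in Blood 21 and 0.505 in the deepest library. Ly6g itself had 4.75 to 26.9 normalized counts in the heart libraries and 41.2 to 645 in the blood libraries. The summed level of 12 neutrophil markers was 2547 to 13564 in heart and 16764 to 53435 in blood, without overlap. The summed level of 13 macrophage markers, all detected in every group, was 2900 to 11671 in heart and 7167 to 9171 in blood. Cardiomyocyte markers summed to 1357 to 10892 in heart against 0 to 23.4 in blood, and platelet markers to 27188 in Blood 21, where the other 9 libraries had 462 to 1755. The libraries therefore held RNA of several cell types in both tissues. In such bulk samples fewer cells of a type and less RNA per cell cannot be told apart, and the part of cell composition in the results below was not tested beyond the marker values given beside them.

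The sequences around the transcription starts are shown for 5 of the 6 members called between MI and Blood, since these carry the differences described below. The sixth, Pros1, is described by its matches only. They are 300 bases each (250 before and 50 after the start), taken from RefSeq on build GRCm38.p6, where 9 of the 10 members had an entry. They are Anxa1 at chr19:20390622-20390921 (minus strand), Fpr1 at chr17:17883890-17884189 (minus strand), Fpr2 at chr17:17887574-17887873 (plus strand), Stab1 at chr14:31168592-31168891 (minus strand) and Cd47 at chr16:49855404-49855703 (plus strand), printed 5′ to 3′ on the gene's strand. Capitals mark every match, on either strand, to TATAAA (the TATA box), GAGGAA (the core bound by PU.1-type ETS factors) or GGGCGG (the GC box).
Anxa1: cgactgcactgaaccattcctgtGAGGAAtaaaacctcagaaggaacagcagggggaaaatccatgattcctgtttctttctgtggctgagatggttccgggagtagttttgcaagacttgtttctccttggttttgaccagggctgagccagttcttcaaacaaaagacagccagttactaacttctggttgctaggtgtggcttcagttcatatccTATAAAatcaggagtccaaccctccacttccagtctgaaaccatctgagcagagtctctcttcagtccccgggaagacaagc
Fpr1: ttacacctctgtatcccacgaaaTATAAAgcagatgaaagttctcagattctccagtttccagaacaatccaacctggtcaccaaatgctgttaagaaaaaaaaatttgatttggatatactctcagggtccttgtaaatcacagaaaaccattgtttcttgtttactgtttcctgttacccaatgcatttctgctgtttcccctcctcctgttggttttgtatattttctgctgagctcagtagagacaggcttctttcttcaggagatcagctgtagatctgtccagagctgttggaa
Fpr2: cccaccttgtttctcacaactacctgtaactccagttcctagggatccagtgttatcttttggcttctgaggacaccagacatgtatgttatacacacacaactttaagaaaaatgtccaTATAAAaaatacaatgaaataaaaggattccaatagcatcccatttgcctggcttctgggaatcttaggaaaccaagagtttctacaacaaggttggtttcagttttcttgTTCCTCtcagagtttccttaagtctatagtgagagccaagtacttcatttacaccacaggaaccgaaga
Stab1: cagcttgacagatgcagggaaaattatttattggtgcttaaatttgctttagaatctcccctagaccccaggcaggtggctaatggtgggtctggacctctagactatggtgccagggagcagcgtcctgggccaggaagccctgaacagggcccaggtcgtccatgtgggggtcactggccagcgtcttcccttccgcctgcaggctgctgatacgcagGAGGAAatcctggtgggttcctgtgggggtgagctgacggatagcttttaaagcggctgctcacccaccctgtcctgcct
Cd47: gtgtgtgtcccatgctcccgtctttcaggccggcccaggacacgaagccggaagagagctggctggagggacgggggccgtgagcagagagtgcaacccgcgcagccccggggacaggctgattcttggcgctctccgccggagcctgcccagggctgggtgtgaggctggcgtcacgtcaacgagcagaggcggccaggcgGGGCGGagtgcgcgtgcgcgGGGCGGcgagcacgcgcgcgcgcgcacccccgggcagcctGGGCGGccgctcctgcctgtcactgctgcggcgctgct
Anxa1, Fpr1 and Fpr2 each held 1 TATAAA match, which 13.6% of all 32851 RefSeq promoters of this length hold, and the other 6 members had none. The match lay close before the start in Anxa1, but far before it in Fpr1 and Fpr2. GAGGAA was matched once each in Anxa1, Fpr2, Stab1 and Axl, against 28.3% of all promoters. GGGCGG was matched 3 times in Cd47, 4 times in Mertk, 4 times in Gas6, 2 times in Axl and 5 times in Pros1, and not in Anxa1, Fpr1, Fpr2 or Stab1, against 35.7% of all promoters. GC content was 39.3% in Fpr2, 40% in Fpr1 and 47.3% in Anxa1, below the median of 52.7% over all promoters, and 57.3% to 74% in the other 6 members. These matches describe the letters of the windows and do not show that any factor binds there.

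On GRCm39, the build of the deposited files, Fpr1 lies at chr17:18096733-18104202 on the minus strand and Fpr2 at chr17:18108070-18114215 on the plus strand, with starts 3868 bases apart and pointing away from each other. Of the 100-base stretches of Fpr2 transcripts, 12.1% also occur in the predicted gene Gm5966, so its counts are less certain than those of the other 9 members, which share 0%.

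Annexin A1 was the member with the largest difference between heart and blood. Its normalized counts (reads divided by the size factor of the library) were 101, 295 and 261 in MI 13, 19 and 20, and 277, 282 and 293 in MI + MSC 15, 17 and 18. In blood they were 1095 and 4173 in Blood 21 and 22, and 1996 and 1079 in Blood + MSC 23 and 24. Every heart library lay below every blood library, and the lowest value came from MI 13, where Anxa1 rested on 12 reads. Anxa1 was lower in MI than in Blood by a log2 fold change of -3.42 (SE 0.58, limma adjusted p = 0.00174), and lower in MI + MSC than in Blood + MSC by -2.36 (SE 0.58, adjusted p = 0.0217). The second call rested on every library it compared, since leaving out any of these 5 gave adjusted p values of 0.0561 to 0.243 with log2 fold changes of -2.80 to -1.92, the weakest without Blood + MSC 23. Set against the neutrophil markers of the same library, Anxa1 was 2.08 to 10.4 per 100 marker counts in heart and 2.45 to 8.41 in blood, which overlapped.

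The formyl peptide receptors, which sense bacterial and mitochondrial peptides and, for Fpr2, annexin A1, were also lower in MI than in Blood. Fpr1 had 33.6, 186 and 157 normalized counts in MI 13, 19 and 20, and 99.4, 220.4 and 42.7 in MI + MSC 15, 17 and 18. It had 756 and 1101 in Blood 21 and 22, and 377 and 271 in Blood + MSC 23 and 24. All 6 heart libraries were below all 4 blood libraries, and MI 13 carried only 4 Fpr1 reads. In MI against Blood the log2 fold change of Fpr1 was -3.16 (SE 0.73, adjusted p = 0.00772), and in MI + MSC against Blood + MSC it was -1.68 (SE 0.73, adjusted p = 0.140), which did not pass.

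Fpr2 had 92.4, 202 and 154 normalized counts in MI 13, 19 and 20, while MI + MSC 15, 17 and 18 had 200.1, 390.3 and 86.8. Its values were 615 and 1011 in Blood 21 and 22, and 527 and 345 in Blood + MSC 23 and 24. MI and Blood did not overlap, but MI + MSC 17 lay above Blood + MSC 24. The log2 fold change of Fpr2 was -2.45 in MI against Blood (SE 0.55, adjusted p = 0.00709) and -1.16 in MI + MSC against Blood + MSC (SE 0.55, adjusted p = 0.178). The lower levels of Anxa1, Fpr1 and Fpr2 in MI than in Blood were called under every alternative setting tried, with adjusted p up to 0.0441.

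The formyl peptide receptors were also set against the neutrophil markers of the same library. Fpr1 was 1.21 to 2.62 per 100 neutrophil marker counts in heart and 1.59 to 2.06 in blood. Fpr2 was 2.44 to 3.63 per 100 in heart and 1.37 to 2.22 in blood. On this scale all 6 heart libraries were above all 4 blood libraries, the opposite order to its normalized counts. S100a8 and S100a9 made up 12061 and 16229 of the marker sum in Blood 21, so this order depends on how the markers are weighted. Against Csf3r alone, MI + MSC 15 (Fpr2 200, Csf3r 2097) lay below Blood 21 (615 and 5695), and the tissues overlapped. Per kb of exon, the ratio of Fpr2 to Fpr1 was 1.79 to 2.05 in MI + MSC, 0.992 to 2.77 in MI and 0.820 to 1.41 in blood. The highest of these ratios was in MI 13, where it rested on 11 Fpr2 and 4 Fpr1 reads.

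**Figure D1:**
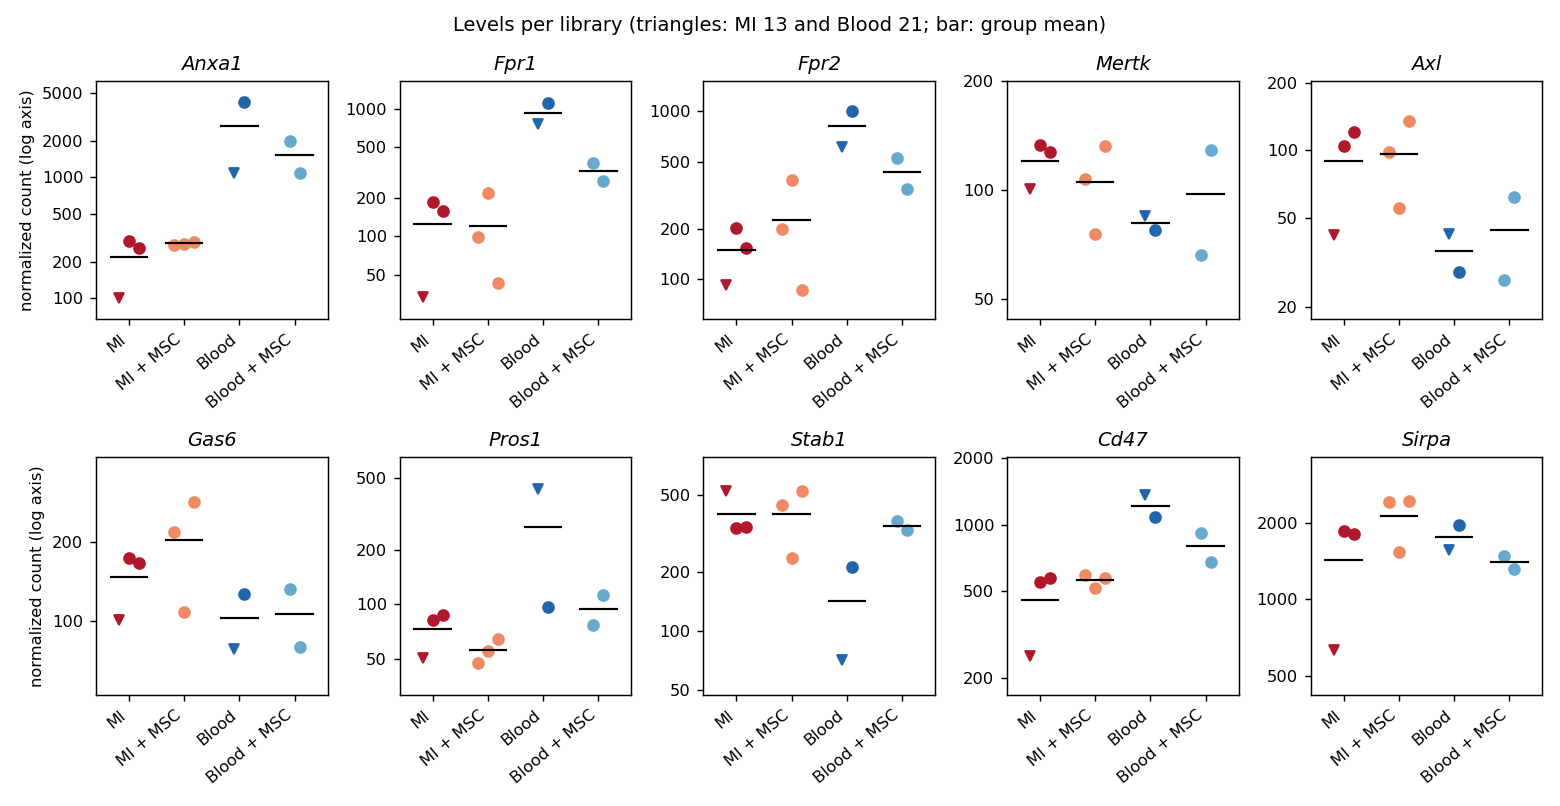
Normalized counts of the 10 members (log axes, 1 panel a gene) in each library of MI, MI + MSC, Blood and Blood + MSC, with the group mean as a bar and the shallow libraries MI 13 and Blood 21 as triangles. Anxa1, Fpr1 and Cd47 lay lower in all 6 heart libraries than in all 4 blood libraries. How many of all tested genes did so was not counted. The Pros1 value of 438 in Blood 21 stood apart from the rest.

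Of the receptor kinases, MerTK, which mediates engulfment of apoptotic cells by macrophages, passed the test in none of the comparisons. Mertk had 101, 134 and 128 normalized counts in MI 13, 19 and 20, and 107, 75.8 and 133 in MI + MSC 15, 17 and 18. It had 84.8 and 77.3 in Blood 21 and 22, and 65.9 and 129 in Blood + MSC 23 and 24. The 3 MI libraries were above both Blood libraries, while MI + MSC and Blood + MSC overlapped. Its log2 fold change was 0.55 in MI against Blood (SE 0.35, 95% interval -0.21 to 1.31, adjusted p = 0.230), which did not pass.

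Axl, the related kinase that binds Gas6 with high affinity, had 42.0, 105 and 120.4 normalized counts in MI 13, 19 and 20, and 98.0, 55.1 and 136 in MI + MSC 15, 17 and 18. The values were 42.4 and 28.6 in Blood 21 and 22, and 26.5 and 61.9 in Blood + MSC 23 and 24. Heart libraries tended to the higher values, with MI 13 and MI + MSC 17 inside the range of the blood libraries. Axl differed by a log2 fold change of 1.17 in MI against Blood (SE 0.53, adjusted p = 0.103) and 1.11 in MI + MSC against Blood + MSC (SE 0.53, adjusted p = 0.177), and neither passed. Without MI 13, in which Axl had 5 reads, its log2 fold change in MI against Blood was 1.63 (adjusted p = 0.0298), and edgeR called it too, with 1.61 (adjusted p = 0.0340).

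The macrophage markers gave a common yardstick for both kinases. Axl was 0.802 to 1.45 per 100 macrophage marker counts in heart and 0.370 to 0.821 in blood, which met only at their ends. Mertk was 1.0 to 3.48 per 100 in heart and 0.919 to 1.71 in blood, with the highest value in MI 13, where Mertk had 12 reads. The ratio of Axl to Mertk per kb was 0.218 to 0.534 in heart and 0.194 to 0.262 in blood, with only MI 13 of the heart libraries below 0.262.

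The bridging ligands differed in which tissue had the higher values. Gas6, the ligand shared by both kinases, had 101, 174 and 167 normalized counts in MI 13, 19 and 20, and 219, 108 and 285 in MI + MSC 15, 17 and 18. It had 77.7 and 127 in Blood 21 and 22, and 132 and 79.4 in Blood + MSC 23 and 24. Heart and blood overlapped, and the log2 fold changes of Gas6 were 0.52 in MI against Blood (SE 0.44, adjusted p = 0.377) and 0.87 in MI + MSC against Blood + MSC (SE 0.44, adjusted p = 0.203).

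Pros1, which encodes protein S, the anticoagulant cofactor that platelets also store, had 50.4, 81.7 and 87.5 normalized counts in MI 13, 19 and 20, and 47.3, 55.1 and 64.4 in MI + MSC 15, 17 and 18. It had 438 and 96.2 in Blood 21 and 22, and 76.4 and 112.2 in Blood + MSC 23 and 24. The value in Blood 21 was the highest of all and came from the library with platelet markers at 27188. Pros1 was lower in MI than in Blood by a log2 fold change of -1.50 (SE 0.52, adjusted p = 0.0443), but without Blood 21 the value was -0.42 (adjusted p = 0.431), and leaving out any of the other 9 libraries except Blood 22 also ended the call, with adjusted p of 0.0551 to 0.114. The Pros1 call was also lost with TMM scaling (-1.72, limma adjusted p = 0.0579) and by library size (-0.99, adjusted p = 0.151). With only the 2 groups compared in the fit it was lost too (adjusted p = 0.129). Per 100 platelet marker counts, Pros1 was 1.61 in Blood 21 and 2.70 to 18.7 in the other 9 libraries. The ratio of Gas6 to Pros1 per kb was 2.20 to 5.32 in the 6 heart libraries and 0.204 to 1.99 in the 4 blood libraries, without overlap.

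Stabilin-1, a scavenger receptor of macrophages and sinusoidal endothelium that binds phosphatidylserine, was the only member called higher in MI than in Blood. Stab1 had 521, 337 and 341 normalized counts in MI 13, 19 and 20, and 444, 236 and 523 in MI + MSC 15, 17 and 18. The values were 70.7 and 214 in Blood 21 and 22, and 367 and 329 in Blood + MSC 23 and 24. The 3 MI libraries were above both Blood libraries, whereas the Blood + MSC libraries lay inside the MI + MSC range. Between MI and Blood the log2 fold change of Stab1 was 1.65, higher in MI (SE 0.47, adjusted p = 0.0206), and in MI + MSC against Blood + MSC its log2 fold change was 0.13 (SE 0.47, adjusted p = 0.884). The call was lost without Blood 21, in which Stab1 had 10 reads (0.86, adjusted p = 0.185), without MI 13 (1.44, adjusted p = 0.0530), without both (0.66, adjusted p = 0.228) and with TMM scaling (1.42, adjusted p = 0.145).

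Stab1 was 3.44 to 4.48 per 100 macrophage marker counts in the 5 heart libraries other than MI 13, which had 17.97. In blood it was 0.770 in Blood 21, 2.86 in Blood 22 and 4.37 to 5.12 in Blood + MSC. Endothelial markers summed to 2206 to 2387 in MI, 515 to 985 in MI + MSC, 129 to 1653 in Blood and 81.6 to 88.3 in Blood + MSC. In Blood 21 the sum of 1653 was mostly Vwf (911), Pecam1 (586) and Esam (127), genes that platelets also express, while Kdr, Tie1, Emcn and Egfl7 were at 0 and Cdh5 at 7.07. The part of endothelial RNA in the Stab1 levels was not tested.

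The inhibitory ligand Cd47, which marks a cell as not to be engulfed, was lower in MI than in Blood. It had 252, 545 and 569 normalized counts in MI 13, 19 and 20, and 587, 517 and 569 in MI + MSC 15, 17 and 18. The values were 1357 and 1079.8 in Blood 21 and 22, and 918 and 678 in Blood + MSC 23 and 24. Every heart library was below every blood library. Cd47 was lower in MI than in Blood by a log2 fold change of -1.50 (SE 0.39, adjusted p = 0.0140), while the value in MI + MSC against Blood + MSC was -0.50 (SE 0.39, adjusted p = 0.409). The call was lost without Blood 21 (-1.33, adjusted p = 0.0658) and with TMM scaling (-1.72, adjusted p = 0.0831), and held without both MI 13 and Blood 21 (-0.95, adjusted p = 0.0280). Set against the neutrophil markers, Cd47 had the opposite order, with 6.74 to 9.90 per 100 marker counts in MI and 2.02 to 3.03 in Blood, without overlap. Over all libraries it was 3.81 to 20.2 per 100 in heart and 2.02 to 4.04 in blood, which overlapped. The neutrophil marker sum was itself lower in every heart library than in every blood library. Which cells the Cd47 reads came from was not tested.

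Its receptor Sirpa, an inhibitory receptor of myeloid cells, had 630.3, 1860.0 and 1819.9 normalized counts in MI 13, 19 and 20, and 2414, 1538 and 2439 in MI + MSC 15, 17 and 18. It had 1561 and 1975 in Blood 21 and 22, and 1487 and 1324 in Blood + MSC 23 and 24. MI and Blood overlapped, and the MI + MSC libraries were above both Blood + MSC libraries. Neither difference passed, with log2 fold changes of -0.45 in MI against Blood (SE 0.52, adjusted p = 0.526) and 0.57 in MI + MSC against Blood + MSC (SE 0.52, adjusted p = 0.484).

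Set against the macrophage markers, Sirpa was 17.03 to 26.33 per 100 marker counts over all 10 libraries. Per 100 neutrophil marker counts it was 11.3 to 86.5 in heart and 3.49 to 7.90 in blood. The ratio of Cd47 to Sirpa per kb, which does not depend on the scaling between libraries, was 0.186 to 0.319 in the 6 heart libraries and 0.408 to 0.693 in the 4 blood libraries, without overlap.

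**Figure D2:**
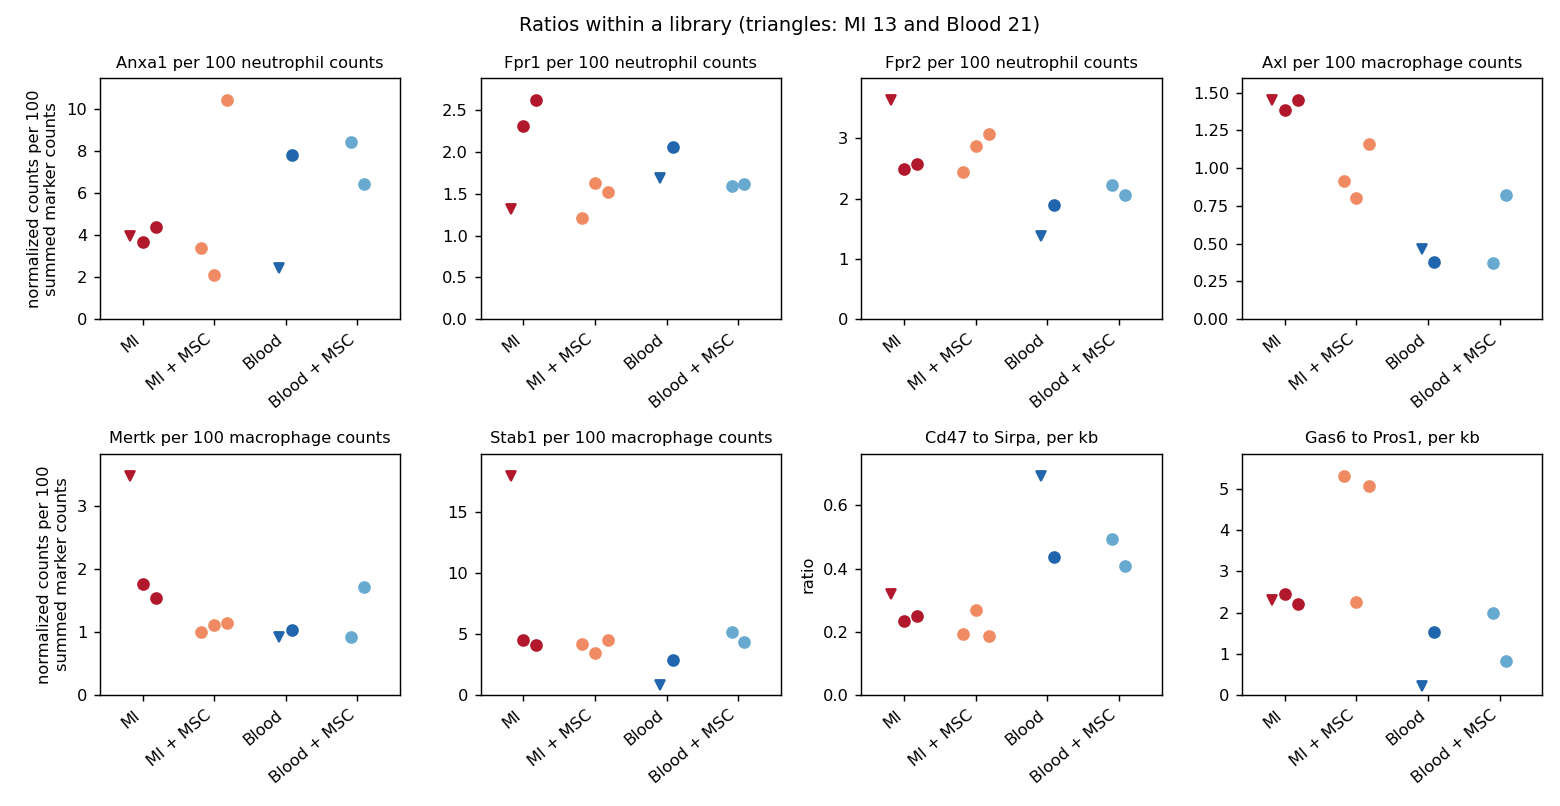
Ratios within each library by group, on linear axes: 6 panels of a member per 100 summed neutrophil or macrophage marker counts and 2 panels of the ratio of a pair of members per kb of exon, with MI 13 and Blood 21 as triangles. Fpr2 per 100 neutrophil marker counts was 2.44 to 3.63 in heart and 1.37 to 2.22 in blood, and Cd47 to Sirpa was 0.186 to 0.319 in heart and 0.408 to 0.693 in blood.

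Counted together, 1 of the 10 members was called higher and 5 were called lower in MI than in Blood, where 21.2% of all tested genes were called higher and 13.5% lower (limma adjusted p below 0.05 and absolute log2 fold change of at least 0.5). In MI + MSC against Blood + MSC, 0 members were called higher and 1 lower, where 8.23% and 5.85% of all tested genes were called. Without overlap between the groups, 2 members were higher and 5 lower in MI than in Blood, against 31.6% and 23.6% of tested genes. In MI + MSC against Blood + MSC, 1 was higher and 4 were lower, against 33.8% and 29.7%. Anxa1, Fpr1 and Cd47 were lower in all 6 heart than in all 4 blood libraries. How many of all tested genes had that order was not counted. The median log2 fold change of the members was -0.97 in MI against Blood, where that of all tested genes was 0.15, and -0.19 in MI + MSC against Blood + MSC, where that of all tested genes was 0.09.

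**Figure D3:**
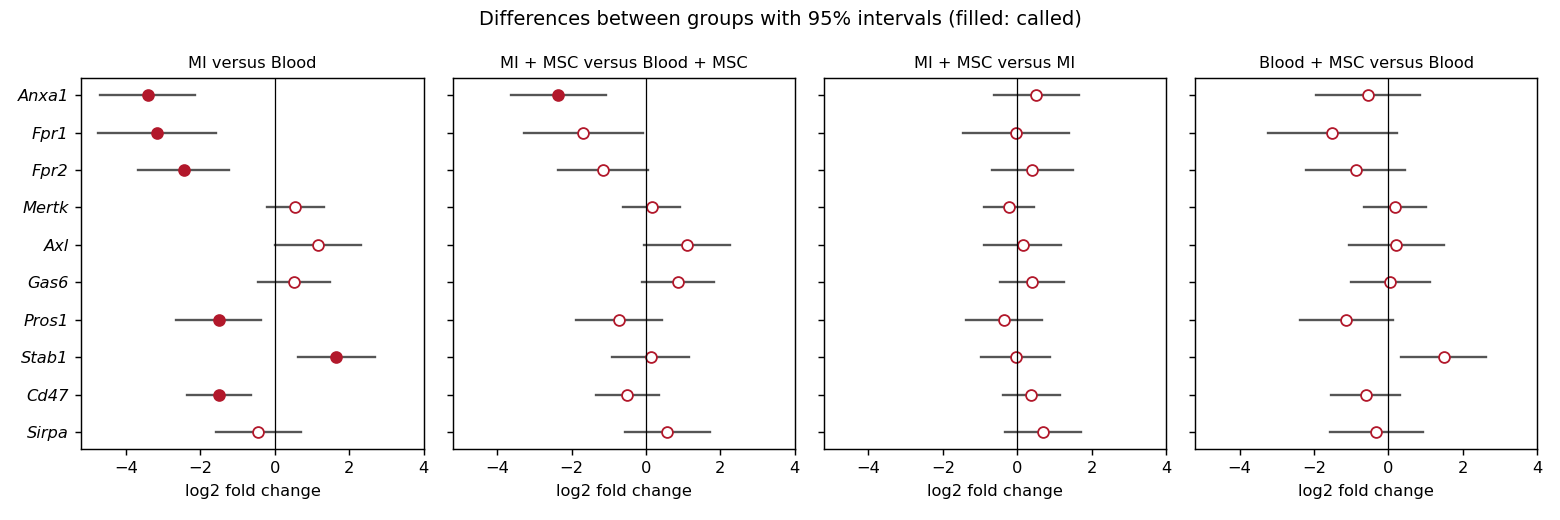
Log2 fold changes of the 10 members on the log2(normalized count + 2) scale with 95% intervals in the 4 comparisons, filled where called. In MI versus Blood, 5 members lay below 0 and Stab1 above 0 as called values, in MI + MSC versus Blood + MSC only Anxa1 was called, and in both comparisons of MSC treatment none was called.

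The treatment comparisons asked whether MSC changed these genes in either tissue. In the heart, MI + MSC and MI overlapped for all 10 members, where 7.05% of tested genes were higher and 9.6% lower without overlap. None of the members was called by limma, 0 of 10 passed an unadjusted p under 0.05, and 0% of all tested genes were called in either direction, with 925 genes at an unadjusted p under 0.05. The largest value among the members was that of Sirpa, with a log2 fold change of 0.69 (SE 0.47, 95% interval -0.33 to 1.71, adjusted p = 0.674). The intervals were wide, from -1.45 to 1.40 for Fpr1 and from -0.90 to 0.46 for Mertk, so that a log2 change of 1 in either direction lies inside that of Fpr1. DESeq2 and edgeR called 0 members in this comparison as well. The 0% of all tested genes is that of limma, and the share called by DESeq2 or edgeR was not counted. Of the pathway lists described below, DESeq2 called 1 gene lower.

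In the blood, 1 member was higher and 4 were lower without overlap in Blood + MSC than in Blood, against 21% and 15.4% of all tested genes. The higher one was Stab1 and the lower ones were Fpr1, Fpr2, Cd47 and Sirpa. The neutrophil markers also summed to less in Blood + MSC (23725 and 16764) than in Blood (44788 and 53435). Per 100 neutrophil marker counts the order turned for Fpr2 (2.22 and 2.06 in Blood + MSC, 1.37 and 1.89 in Blood). It also turned for Cd47 (3.87 and 4.04 against 3.03 and 2.02) and Sirpa (6.27 and 7.90 against 3.49 and 3.70). Fpr1 stayed lower (1.59 and 1.61 against 1.69 and 2.06). These orders depend on the markers summed. S100a9 was lower in Blood + MSC (4124 and 2730 against 16229 and 10655), while Csf3r overlapped (7249 and 5757 against 5695 and 9547). Against Csf3r alone Fpr2 stayed lower in Blood + MSC, and Cd47 and Sirpa overlapped. By limma no member was called, 0% of all tested genes were called in either direction, and 848 genes had an unadjusted p under 0.05, as had 1 member. That member was Stab1, with a log2 fold change of 1.48 (SE 0.52, limma adjusted p = 0.672), where the reads in the Blood libraries were 10 and 330. Fpr1 differed by -1.51 (SE 0.80, adjusted p = 0.684) and Pros1 by -1.13 (SE 0.57, adjusted p = 0.679). With only Blood 21 left in its group, that is without Blood 22, Stab1 (2.27, adjusted p = 0.0151) and Pros1 (-2.22, adjusted p = 0.00724) were called, and the lone library was assumed to vary like the other groups. DESeq2 and edgeR called 0 members with both Blood libraries in the fit. The share of all tested genes they called was not counted, and DESeq2 called 4 genes of the pathway lists lower.

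The interaction, the difference of the MSC effect between heart and blood, was called for 0 members and for 0% of all tested genes. The largest interaction among the members was that of Stab1, at -1.52 (SE 0.67, 95% interval -2.98 to -0.06, limma adjusted p = 0.630). The 4 comparisons share groups, MI and Blood each entering 2 of them, so their values are not independent of each other.

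Levels of different genes were compared per kb of exon. The length covered all annotated exons of a gene together, 1313 bases for Fpr2, 3126 for Anxa1 and 9180 for Axl. A transcript in the cells can be shorter than that, so the order of genes also depends on the annotation. Which transcripts were present was not tested. In MI the order of mean levels was Sirpa, Fpr2, Fpr1, Anxa1, Cd47 and Stab1, whose neighbours overlapped, then Gas6 and Mertk, then Pros1 and Axl. Sirpa stood at 205 ± 99.8 normalized counts per kb (SD, n = 3) and Axl at 9.70 ± 4.52 (SD, n = 3). The order in MI + MSC was Sirpa, Fpr2, Fpr1, Anxa1, Cd47, Stab1, Gas6, Mertk, Axl and Pros1, with Anxa1 and Cd47, Cd47 and Stab1, and Mertk and Axl apart and all other neighbours overlapping.

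In Blood the order was Anxa1, Fpr1, Fpr2, Sirpa, Cd47, Pros1, Gas6, Mertk, Stab1 and Axl. Anxa1 stood at 843 ± 696 normalized counts per kb (SD, n = 2), Fpr1 at 701 ± 184 and Fpr2 at 619 ± 213, and these 3 overlapped. Fpr2 and Sirpa, Sirpa and Cd47, Cd47 and Pros1, and Stab1 and Axl were apart. In Blood + MSC Anxa1 led with 492 ± 207 (SD, n = 2), followed by Fpr2, Fpr1, Sirpa, Cd47, Stab1, Mertk, Gas6, Pros1 and Axl. On this length scale Axl was last or next to last in every group.

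**Figure D4:**
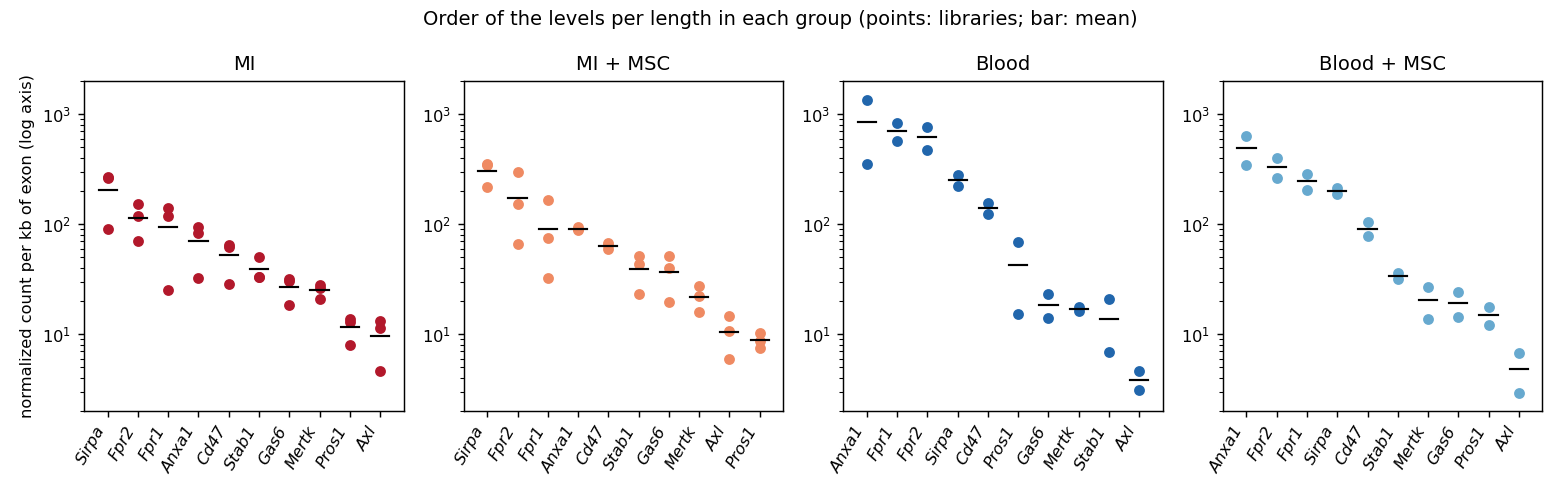
Levels of the members in normalized counts per kb of all annotated exons (log axis) in each group. Members are ordered by group mean, with libraries as points and means as bars. Sirpa led in MI and MI + MSC, and Anxa1 led in Blood and Blood + MSC.

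The genes whose profile over the 10 libraries was most like that of a member were found by the root mean square (RMS) difference of centred log2 values among 10627 tested coding genes. For Anxa1 they were Taldo1 (0.29) and Lsp1 (0.35), where Anxa1 itself varied with an RMS of 1.56. For Fpr2 they were Trem3 (0.20) and Slco4c1 (0.22), and for Fpr1 they were Stfa2l1 (0.37) and Trem5 (0.41). Mertk was nearest to Bola3 and Cd2ap, Axl to Grwd1 and Irf8, and Gas6 to B4galt6 and Slc39a3. Pros1 was nearest to Ptgir and Gypc, Stab1 to Dapk3 and Snx29, Cd47 to Tasl (0.12) and Arpc1a (0.13), and Sirpa to Clta (0.15) and Chpf2 (0.15).

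Other genes of the same processes were taken from 9 lists with 110 entries, 83 of them tested. In MI against Blood 12 were called higher and 19 lower, where 21.2% of all tested genes were called higher and 13.5% lower. In MI + MSC against Blood + MSC 12 were higher and 11 lower, against 8.23% and 5.85% of all tested genes, and in both treatment comparisons 0 in either direction, with 7 and 8 genes at an unadjusted p under 0.05. The median log2 fold change over the lists in MI against Blood was -0.18, and that of all tested genes was 0.15. The counts per list that follow are to be read against the same 21.2% and 13.5%.

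Among pro-resolving mediators and their receptors, 1 of 9 tested genes was higher and 3 were lower in MI than in Blood. Il10, the anti-inflammatory cytokine, was the higher one (adjusted p = 0.00214), with 11.5 to 42.0 normalized counts in MI and 0 to 0.650 in Blood, where it was under the level of 3 reads in both libraries, so no fold is given. Alox5, which starts leukotriene and lipoxin synthesis, was lower by -2.54 (mean 105 in MI and 648 in Blood, adjusted p = 0.00285). Alox12, the platelet lipoxygenase, was lower by -4.37, with 2423 normalized counts in Blood 21, the platelet-rich library, against 85.1 in Blood 22. Of 9 annexins and annexin-binding S100 proteins, 0 were higher and 3 were lower, namely S100a11 (-2.59), Anxa2 (-2.25) and Anxa11 (-1.66).

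Among 14 tested receptors for apoptotic cells, 3 were higher and 4 lower in MI. Havcr2, which encodes the phosphatidylserine receptor TIM-3, was higher by 3.27 (mean 118 normalized counts in MI and 10.3 in Blood), and Lrp1, a receptor for calreticulin, by 2.43. Itgb3, an integrin chain abundant in platelets, was lower by -3.25 with 1187 normalized counts in Blood 21 and 46.8 in Blood 22. Of 8 tested bridging and opsonising ligands 1 was called, Mfge8, which links phosphatidylserine to integrins and was higher in MI by 3.32 (mean 105 normalized counts in MI and 8.73 in Blood).

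Find-me and eat-me genes had 3 of 9 tested members higher and 0 lower in MI. The fractalkine receptor Cx3cr1 was higher by 4.76, with 67.2 to 164 normalized counts in MI and 0 to 7.80 in Blood. The scramblase Xkr8 was higher by 2.18, with 14.9 to 25.2 in MI and 0 to 9.75 in Blood. The nucleotide receptor P2ry6 was higher by 1.71. The list nearest to Cd47 and Sirpa held inhibitory ligands, receptors and signalling genes, and SIRP family relatives. It had 0 of 11 higher and 6 lower. Among the lower ones were Sirpb1b, a SIRP family relative not taken as inhibitory (-2.47), and the phosphatase Ptpn6 that acts downstream of SIRPα (-2.38). Cd24a, another inhibitory ligand, was also lower (-2.28). In engulfment and digestion 2 of 18 were higher and 3 lower, with Rac2, the small GTPase of blood cells, lower by -2.91, Dock2, its exchange factor, lower by -1.97, and Pparg, a lipid-sensing nuclear receptor, higher by 2.26. In receptor shedding 2 of 5 were higher, Timp3 (3.59), the tissue inhibitor of the sheddase ADAM17, and Rhbdf1 (2.55). Rhbdf1 had 16.8 to 26.9 normalized counts in MI and 0 to 5.20 in Blood. In Blood 21, Cx3cr1, Xkr8, Rhbdf1, Havcr2, Mfge8 and Pparg were under the level of 3 reads (21.2 normalized counts). In MI 13, where 3 reads were 25.2 normalized counts, Rhbdf1 (16.8) was under that level and Xkr8 (25.2) was at it. The log2 fold changes of all these genes are therefore uncertain in size.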

How the data were processed

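RNA-seq of Ly6G+ cells was available for 10 libraries, grouped by their labels. According to the methods of the study, reads were trimmed (Trimmomatic), freed of duplicates (Picard), mapped to GRCm39 (STAR), counted per gene and strand (featureCounts) and divided by DESeq2 size factors. The deposited signal values are these normalized counts, and both deposited tables hold the same values (281850 of 281850). Values rose in steps worth 1 read each, and dividing by the step gave whole reads for 100% of them (tolerance 0.01 reads). The 3-read limits cover counting error only, while the intervals of fold changes come from limma and reflect the spread between libraries. Genes were named from GENCODE M39 (27906 of 28185 identifiers). Of the lists, 5 formyl peptide receptor paralogues, Mc3r and Ucp2 were not analysed here.

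Values were tested as log2(normalized count + 2) with limma 3.58.1 (trend, 1 mean per group over all 10 libraries) for genes with a mean of at least 10, with Benjamini-Hochberg adjustment over 11549 genes. Calls required an adjusted p below 0.05 and a difference of 0.5 or more on the log2 scale, the interaction at the adjusted p alone. Fold changes on this scale understate those of low genes. The scripts were tested on simulated data. The members and lists were chosen with earlier results of these data known. Named besides the members were, per pathway list, at most the 3 called genes with the largest absolute log2 fold change in MI versus Blood, and the 2 coding genes nearest to each member in profile. Alternatives were pseudocounts of 1, 5 and 10, no filter or one at 20, TMM or library size scaling, edgeR 4.0.16, DESeq2 1.42.0, voom with sample weights, the 2 compared groups alone, and leaving out libraries.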

Additional observations from a re-analysis of the deposited data

How the results depend on the processing

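Depth limits the members most in MI 13 (148594 reads) and Blood 21 (268860 reads), where Fpr1 had 4 and Stab1 10 reads, and groups of 2 or 3 libraries leave wide intervals. Over all members and comparisons, 1045 of 1140 log2 fold changes recomputed under an alternative kept their direction and their side of the threshold, 51 changed sign, 27 lost a call and 17 gained one. The 51 that changed sign were of members and comparisons that were not called. Where no cause is shown by the setting itself, the cause was not tested. Scaling by TMM in place of the deposited size factors moved the median log2 fold change of all tested genes from -0.01 to 0.25 in MI + MSC versus MI, from 0.11 to 0.72 in Blood + MSC versus Blood, from 0.15 to -0.07 in MI versus Blood and from 0.09 to -0.50 in MI + MSC versus Blood + MSC. Scaling by library size moved them to -0.14, 0.37, 0.63 and 0.17. Of genes at an unadjusted p under 0.05 in MI versus Blood, 3175 were higher and 2199 lower, against 4628 and 1145 by library size, and in MI + MSC versus Blood + MSC 1978 were higher and 1630 lower, against 1030 and 2404 by TMM.

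With TMM scaling the log2 fold changes in MI + MSC versus MI became 0.23 for Fpr1, 0.056 for Mertk and 0.24 for Stab1, those in Blood + MSC versus Blood 0.13 for Anxa1, 0.053 for Cd47 and 0.35 for Sirpa, those in MI + MSC versus Blood + MSC -0.45 for Mertk, -0.49 for Stab1 and -0.048 for Sirpa, and the interaction of Gas6 -0.035. With library size scaling Sirpa was 0.075 in MI versus Blood and the interaction of Gas6 -0.073. In MI + MSC versus MI, edgeR with TMM gave -0.012 for Axl and 0.042 for Stab1, edgeR with the DESeq2 size factors gave -0.025 for Axl, and voom with sample weights gave -0.20 for Axl. In Blood + MSC versus Blood, Gas6 was -0.076 by edgeR with the DESeq2 size factors, -0.053 by DESeq2 and -0.071 by voom, which also gave 0.043 for Anxa1 and, in MI + MSC versus Blood + MSC, -0.032 for Stab1.

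Members called higher in MI than in Blood numbered 1, but 0 with TMM scaling, with voom and with only the 2 groups compared in the fit, 3 by library size (Stab1, Axl and Mertk) and 2 by edgeR with either scaling and by DESeq2 (Stab1 and Axl). Members called lower there numbered 5, but 3 with TMM scaling and with only the 2 groups. By library size the call of Pros1 was lost. In MI + MSC versus Blood + MSC 1 member was called higher by edgeR with the DESeq2 size factors and by voom (Axl), and 2 were called lower by voom and with only the 2 groups (Anxa1 and Fpr1). Pathway genes called higher in MI than in Blood numbered 22 by library size and 6 by voom, and those called lower 12 with only the 2 groups. In MI + MSC versus Blood + MSC the higher ones numbered 4 with TMM scaling, 18 by edgeR with TMM, 19 by edgeR with the DESeq2 size factors, by voom and with only the 2 groups, and 20 by DESeq2. The lower ones numbered 20 by edgeR with TMM, 18 by edgeR with the DESeq2 size factors and by DESeq2, 19 by voom and 23 with only the 2 groups. In MI + MSC versus MI voom called 1 pathway gene higher and 1 lower and DESeq2 1 lower, and in Blood + MSC versus Blood DESeq2 called 4 lower. The share of all tested genes called was not counted under any alternative, including those that leave out libraries. The counts of members and pathway genes under them therefore have no background to be read against.

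Leaving out 1 library at a time, or MI 13 and Blood 21 together (a choice made after seeing the data), members called higher in MI than in Blood ranged from 0 to 1 and lower from 3 to 5, and members called lower in MI + MSC than in Blood + MSC from 0 to 3. Members called in Blood + MSC versus Blood ranged from 0 to 1 higher and 0 to 1 lower, and in the interaction from 0 to 1 higher and 0 to 1 lower, each reaching 1 only without Blood 22. Pathway genes called ranged from 10 to 19 higher in MI than in Blood, from 2 to 23 higher and 0 to 24 lower in MI + MSC than in Blood + MSC, the lowest without Blood + MSC 23, and from 0 to 8 higher and 0 to 9 lower in Blood + MSC than in Blood, the highest without Blood 22. In the same way log2 fold changes in MI + MSC versus MI ranged from -0.31 to 0.50 for Axl, -0.79 to 0.56 for Fpr1, -0.11 to 0.96 for Fpr2 and -0.27 to 0.30 for Stab1. In Blood + MSC versus Blood they ranged from -1.51 to 0.42 for Anxa1, -0.37 to 0.79 for Axl, -0.32 to 0.41 for Gas6 and -0.29 to 0.66 for Mertk. In MI + MSC versus Blood + MSC they ranged from -0.32 to 0.62 for Mertk and -0.10 to 0.47 for Stab1, and in MI versus Blood from -0.71 to 0.067 for Sirpa. Interactions ranged from -0.79 to 0.52 for Axl, -0.013 to 0.75 for Gas6, -0.87 to 0.070 for Mertk and -0.55 to 1.86 for Pros1. No paired analysis was possible because the labels give every library a number of its own and no number is shared between groups.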
